A study of Homo sapiens with 2 samples.

Results

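The cells described here are the CHLA9 cells that the study's integrated clustering placed in its Cluster_1, 398 of the 5077 CHLA9 barcodes and of the 13545 barcodes of both lines together. They were found by matching each row of the study's cell table to the CHLA9 barcode with the same mitochondrial UMIs (unique molecular identifiers, each standing for 1 captured RNA molecule). All 398 rows matched exactly 1 barcode, and 0 of them fitted any TC71 barcode. The deposited totals exceeded those of the table by 3 to 38 UMIs and by 1 to 9 genes, against limits of 50 and 10. The rows of Cluster_1 used here ran up to barcode 2280, so later CHLA9 cells of this cluster were not analysed here.

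CHLA9 and TC71 are established Ewing sarcoma cell lines, each measured in 1 droplet library that counts the 3′ ends of transcripts. The culture medium differed, being IMDM with 20% serum for CHLA9 and RPMI with 10% for TC71. With 1 library per line, cells are not replicates, so the values carry no tests and no p-values.

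Cluster_1 was compared with the 695 CHLA9 cells of Cluster_4 and with 1247 other CHLA9 cells, which came from the same stretch of barcodes, passed the filters and carried neither label. The 398 cells held 14292570 UMIs, with a median of 34834.5 UMIs and 6569.5 genes per cell and 7.57% mitochondrial UMIs. The Cluster_4 cells held 28173108 UMIs, with a median of 39633 UMIs, 6897 genes and 7.44% mitochondrial UMIs. The other cells held 47460264 UMIs, with medians of 32743 UMIs, 6397 genes and 7.51%. Levels are UMIs summed over a group and scaled to a total of 1000000 (CPM), with exact 95% Poisson intervals, and shares of cells have exact Clopper-Pearson intervals. Both kinds of interval cover counting error only. The clusters were made from the genes of these same cells, so every difference between them is a description and not evidence that the clusters are distinct.

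A dividing cell licenses its replication origins in G1, when MCM helicases are loaded onto DNA, and fires them in S phase. The E2F transcription factors switch on the genes of the G1/S transition, replication-dependent histone genes are expressed while DNA is being copied, and the genes of mitosis rise later, many of them through the CHR promoter element. A cell's transcripts therefore carry an account of where in the cycle it stands.

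The cells had the Ewing sarcoma markers. All 7 were past 10 CPM, led by CD99, the surface protein used in diagnosis, at 1264 CPM (1246 to 1283), and PRKCB at 372 CPM (362 to 382). FLI1, the partner in the EWSR1-FLI1 fusion, was at 37.6 CPM (34.5 to 40.9), beside 37.4 in Cluster_4 and 37.9 in the other cells. Markers of other cell types were mixed. Those with 0 UMIs, picked out after their values were seen, included CDH1, PDGFRA, PTPRC, CD3D, CD3E, MS4A1, LYZ, PECAM1, VWF, KDR, HBB and HBA2, while HBA1 was at 0.350 CPM. The epithelial list summed to 172 CPM, nearly all of it from the keratin KRT18, against 120 CPM in Cluster_4 and 118 in the other cells. The fibroblast list summed to 116 CPM, against 97.7 CPM in Cluster_4 and 133 in the other cells, and 4 of its 6 members were past 10 CPM: COL1A1 at 61.6, PDGFRB at 20.2, COL3A1 at 18.4 and DCN at 12.4 CPM. The lymphoid list summed to 11.96 CPM, all from CD79A, the myeloid list to 3.78, led by AIF1, and the endothelial list to 0.0700, from CDH5. The part of these transcripts in the results was not tested.

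Most cells of Cluster_1 were placed in S phase by their transcripts, although their histone genes were lower than those of Cluster_4. Cell cycle scoring placed 382 of 398 cells in S, or 96.0% (93.6 to 97.7), and 16 in G1, or 4.02% (2.32 to 6.45). With cells thinned to 10000 UMIs it placed 35 in G1, or 8.79% (6.20 to 12.02). Either way it placed 0 of 398 cells in G2M, which allows a share of up to 0.754% by a limit of 3 counts and up to 0.923% by the exact interval. Cluster_4 was split between S and G2M, with 53.8% of cells in S (50.02 to 57.6), 45.6% in G2M (41.9 to 49.4) and 0.576% in G1 (0.157 to 1.47). Of the other cells, 12.4% were in S (10.6 to 14.4), 34.1% in G1 (31.5 to 36.8) and 53.5% in G2M (50.7 to 56.3). Phases were scored from genes that also made the clusters, and free RNA in the droplets enters such scores; its part was not tested.

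Most genes differed little between Cluster_1 and Cluster_4. Of 8604 genes with a mean of at least 10 CPM over both clusters, the median log2 ratio of Cluster_1 over Cluster_4 was 0.01, with quartiles of -0.13 and 0.13. Past 1.5-fold, 131 genes were higher in Cluster_1, 1.52% of those compared, and 193 were lower, 2.24%. Cell cycle genes were among those furthest apart. Of genes of at least 50 CPM in the higher cluster, the 12 furthest in the higher direction included the G1/S genes UNG, DTL, CCNE2, E2F2, E2F1 and CDC25A, and the 12 furthest in the lower direction were led by the mitotic genes DLGAP5, CDCA3, HMMR and AURKA. Against the other CHLA9 cells, 249 of 8616 genes were at least 1.5-fold higher in Cluster_1, 2.89%, and 226 were lower, 2.62%. Both comparisons use the same Cluster_1 cells, so their values are not independent. They are given side by side, and no difference between them was tested.

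**Figure D1:**
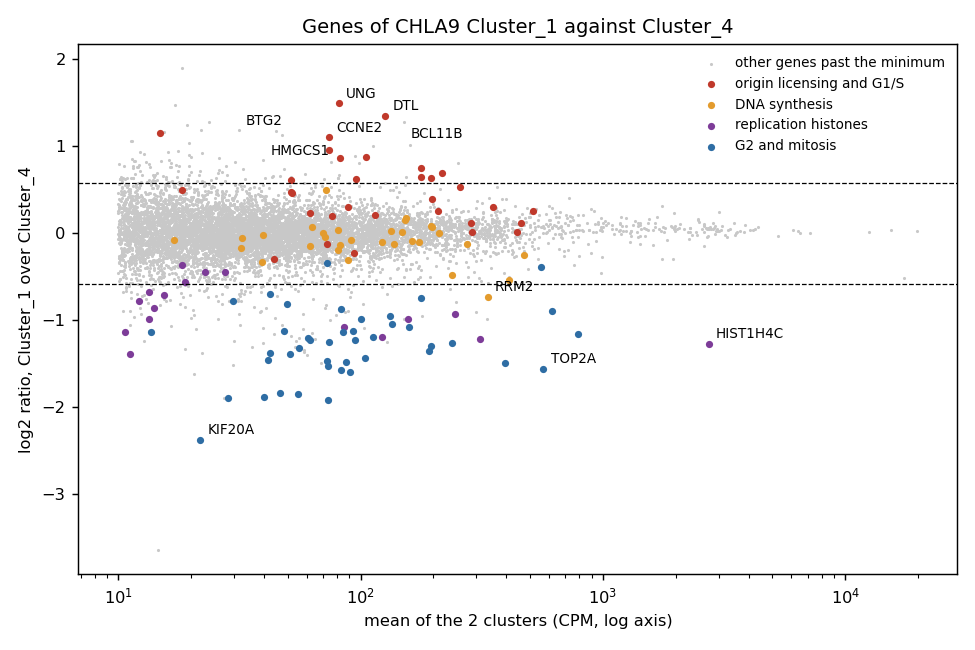
Each point is a gene past 10 CPM, by its mean level in CHLA9 Cluster_1 and Cluster_4 (log axis) and the log2 ratio of Cluster_1 over Cluster_4; dashed lines mark 1.5-fold. Genes of origin licensing and G1/S lie mostly above 0, up to UNG at 2.82-fold, while all 43 genes of G2 and mitosis and all 17 histone genes past the minimum lie below 0.

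Genes of origin licensing and the G1/S transition were higher in Cluster_1 than in Cluster_4. Of the 32 members of this list, all past the minimum, 13 were at least 1.5-fold higher, beside 1.52% of all genes, and 0 were lower. The median log2 ratio was 0.47, with 29 of the 32 above 0. Of the 31 past 10 CPM in each cluster 12 were higher, since CCNE1 passed only through Cluster_1. Together they made up 5814 CPM in Cluster_1, 4496 in Cluster_4 and 2661 in the other cells. Against the other cells 30 of the 32 were higher, beside 2.89% of all genes, with a median of 1.10. The list therefore reached its highest level of the 3 groups in Cluster_1.

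UNG, the glycosylase that removes uracil from newly copied DNA, had the highest ratio of the genes of at least 50 CPM. It stood at 120 CPM (115 to 126) in Cluster_1, 42.7 (40.4 to 45.2) in Cluster_4 and 56.0 (53.9 to 58.2) in the other cells, 2.82-fold above Cluster_4. DTL, which directs the licensing factor CDT1 to destruction in S phase, was at 182 CPM (175 to 189), 71.3 (68.2 to 74.5) and 61.2 (59.0 to 63.4) in the same order, 2.55-fold above Cluster_4. The cyclin E genes CCNE2 and CCNE1, whose products activate CDK2 at the entry into S phase, were highest in Cluster_1 too. CCNE2 was at 101 CPM (95.8 to 106), against 46.9 (44.4 to 49.5) in Cluster_4 and 16.8 (15.7 to 18.0) in the other cells, and CCNE1 was lower throughout, at 20.6, 9.23 and 4.09 CPM in the same order. The transcription factors E2F1 and E2F2 were at 137 CPM (131 to 143) and 97.5 CPM (92.5 to 103), 1.83-fold and 1.94-fold above Cluster_4. CDC25A, the phosphatase that activates CDK2, was at 106 CPM (101 to 112), 1.82-fold above Cluster_4. In each of these genes the Poisson intervals of the 3 groups were apart.

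The loading factors differed among themselves. CDC6, which brings the MCM helicase to origins, was at 267 CPM in Cluster_1 and 165 in Cluster_4, and MCM5 was at 224 and 133 CPM. MCM3, the most abundant member, was at 560 CPM (548 to 572) against 466 (458 to 474), a log2 ratio of 0.26, and MCM7 and PCNA, the sliding clamp of the polymerase, had a log2 ratio of 0.01 each. CDC45, which joins the helicase when an origin fires, was the other way, at 86.5 CPM (81.8 to 91.5) against 101 (97.3 to 105), as was E2F8, a repressor of E2F target genes, at 39.7 CPM (36.5 to 43.1) against 48.6 (46.0 to 51.2). All of these were above their level in the other cells, where MCM3 was at 272 CPM (267 to 277) and CDC45 at 37.1 (35.4 to 38.9).

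**Figure D2:**
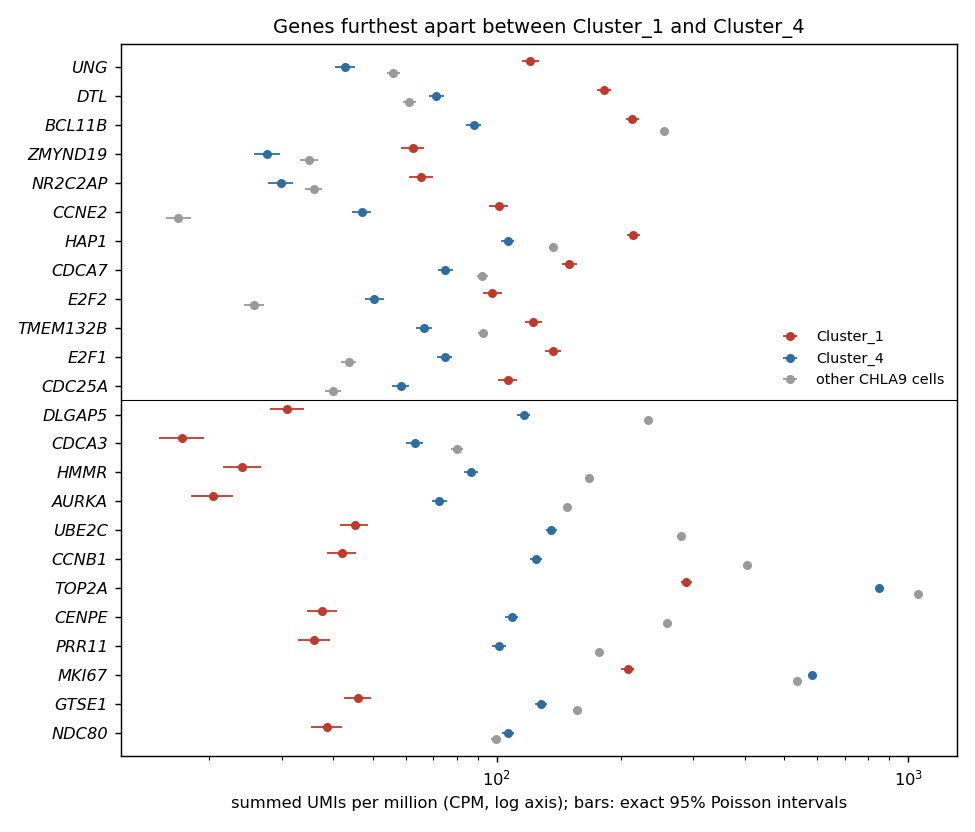
The 12 genes of at least 50 CPM furthest apart in each direction between CHLA9 Cluster_1 and Cluster_4, as summed CPM (log axis) in Cluster_1, Cluster_4 and the other CHLA9 cells, with exact 95% Poisson intervals as bars. BCL11B stands out among the genes higher in Cluster_1, because the other cells, at 254 CPM, lie above Cluster_1 at 213, while each of the 12 lower genes was lowest in Cluster_1.

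The difference was also seen cell by cell. With every cell thinned to 10000 UMIs, a DTL UMI was found in 83.2% of Cluster_1 cells (79.1 to 86.7), in 46.9% of Cluster_4 cells (43.1 to 50.7) and in 39.1% of the other cells. At full depth the shares were 98.2%, 87.8% and 72.7%. For CCNE2 the thinned shares were 62.8% (57.9 to 67.6), 35.4% (31.8 to 39.1) and 14.2%, and the full-depth shares 93.0%, 71.7% and 31.3%. The library holds no cell type that should lack these genes, so the share that free RNA alone would give was not measured.

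Over all cells, the machinery of DNA synthesis itself was close to level between the clusters. Of 31 members 0 were at least 1.5-fold higher in Cluster_1 and 1 was lower, beside 1.52% and 2.24% of all genes, with a median log2 ratio of -0.08. Among S-phase cells only, that median was -0.17, and the list summed to 4239 CPM in Cluster_1 against 5045 in Cluster_4. Against the other cells 13 were higher, beside 2.89% of all genes, 0 were lower and the median was 0.54. The member that was lower was RRM2, the regulated subunit of the ribonucleotide reductase that makes deoxynucleotides, at 252 CPM (244 to 260) against 418 (410 to 425) in Cluster_4 and 174 (170 to 178) in the other cells. The thymidylate synthase TYMS had a log2 ratio of -0.54 (-0.59 to -0.49) and the dUTPase DUT one of -0.25 (-0.30 to -0.21). The fork protection factor TIPIN was at the other end, at 84.4 CPM (79.7 to 89.3) against 59.7 (56.9 to 62.6), and TK1, the salvage kinase of thymidine, was at 164 CPM (157 to 170) against 144 (140 to 149). Among S-phase cells TK1 was at 167 CPM against 176, with its direction turned. The lowest 3 ratios of this list thus belonged to enzymes of nucleotide supply, RRM2, TYMS and RRM1.

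Replication-dependent histone genes were between the levels of Cluster_4 and of the other cells. The list has 58 members, of which 17 were past the minimum. Of these, 13 were at least 1.5-fold lower in Cluster_1 than in Cluster_4, beside 2.24% of all genes, and 0 were higher. The median log2 ratio was -0.93. Of the 13, 4 were under 10 CPM in Cluster_1 and passed through their level in Cluster_4. Among the 13 members past 10 CPM in each cluster 9 were lower with a median of -0.86, and without any minimum the median of the list was -0.68. Against the other cells 10 were past the minimum, 8 of them higher, beside 2.89% of all genes, and 0 lower, with a median of 0.89. All 58 members summed to 2440 CPM in Cluster_1, 5477 in Cluster_4 and 1317 in the other cells.

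HIST1H4C, which encodes histone H4 and was the most abundant member, was at 1605 CPM (1584 to 1626) in Cluster_1, 3862 (3839 to 3885) in Cluster_4 and 899 (890 to 907) in the other cells. The linker histone gene HIST1H1B was at 188 CPM (181 to 195), 437 (429 to 445) and 75.2 (72.7 to 77.7), and a UMI of it was found in 61.6% of thinned Cluster_1 cells (56.6 to 66.4), 97.0% of Cluster_4 cells (95.4 to 98.1) and 23.1% of the other cells. At full depth those shares were 79.4%, 100% and 38.1%. These messages mostly lack a poly(A) tail, which the library chemistry captures, and the gene copies are nearly identical, so the level of a single copy is uncertain. SLBP, the protein that binds their 3′ stem-loop, was at 306 CPM in Cluster_1, 211 in Cluster_4 and 141 in the other cells, an order unlike that of the histone genes.

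Genes of G2 and mitosis were lowest in Cluster_1. Of 43 members, all past the minimum, 41 were at least 1.5-fold lower than in Cluster_4, beside 2.24% of all genes, and 0 were higher. The median log2 ratio was -1.25. Against the other cells 41 were lower, beside 2.62% of all genes, with a median of -1.53. The list summed to 3837 CPM in Cluster_1, 8456 in Cluster_4 and 11626 in the other cells. Of the 43, 41 were past 10 CPM in each cluster, 39 of them lower. The kinesin KIF20A, which acts in cytokinesis and passed the minimum only through Cluster_4, was at 7.07 CPM (5.76 to 8.59) against 36.6 (34.4 to 38.9), 5.17-fold lower. DLGAP5, a spindle microtubule protein, was at 30.9 CPM (28.0 to 33.9) against 116 (112 to 120), and cyclin B1, CCNB1, at 42.0 CPM (38.7 to 45.5) against 124 (120 to 128) and 405 (399 to 411) in the other cells. TOP2A, the topoisomerase that untangles sister chromatids, was at 289 CPM (280 to 297) against 847 (836 to 858), and MKI67, which coats mitotic chromosomes, at 208 (201 to 216) against 583 (574 to 592). The members of the list that were within 1.5-fold of Cluster_4 were CKS1B, with a log2 ratio of -0.38, and the securin gene PTTG1, with one of -0.33.

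Among S-phase cells only, the 382 of Cluster_1 and the 374 of Cluster_4, these lists kept their direction, with medians nearer to 0 for licensing and mitotic genes. The histone list had a median log2 ratio of -1.06, the mitotic list one of -0.93 and the licensing list one of 0.20. UNG was at 121 CPM against 57.5 and DTL at 185 CPM against 96.2, both still past 1.5-fold, whereas E2F1, E2F2, CDC25A and CCNE2 had log2 ratios of 0.50, 0.51, 0.42 and 0.56, under 1.5-fold. TOP2A was at 293 CPM against 659 and HIST1H4C at 1647 against 3776. MCM3 was at 567 CPM against 554, a log2 ratio of 0.03, and CDC45 at 89.3 CPM against 118, one of -0.40.

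Scores per cell showed how far the groups overlapped. For a score, each cell was thinned to 10000 UMIs, and its UMIs of each list gene detected in any cell, zeros included, were log-transformed (natural log, after adding 1) and averaged. The licensing score had a median of 0.831 in Cluster_1 (quartiles 0.743 and 0.913) and 0.652 in Cluster_4 (0.538 and 0.787), and 91.7% of Cluster_1 cells (88.6 to 94.2) were above the Cluster_4 median. All 398 Cluster_1 cells were above the median of the other cells, 0.408. The mitotic score had a median of 0.428 in Cluster_1 (0.315 and 0.521) and 0.760 in Cluster_4 (0.669 and 0.882), and 2 of the 398 cells, 0.503% (0.0609 to 1.803), exceeded the Cluster_4 median. For DNA synthesis 34.9% of Cluster_1 cells (30.2 to 39.8) exceeded it, nearer to even than for the other 3 cell cycle lists.

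The histone score was spread more widely in Cluster_1 than in Cluster_4. It ran from 0 to 0.326 with quartiles of 0.0553 and 0.178 around a median of 0.125, while in Cluster_4 the quartiles were 0.176 and 0.234 around 0.204. Its SD was 0.0699 in Cluster_1 and 0.0450 in Cluster_4. In Cluster_1, 47 cells, 11.8% (8.81 to 15.4), were above the Cluster_4 median, and 327, 82.2% (78.0 to 85.8), were above the median of the other cells, 0.0419. By the share of UMIs instead of the score, 5.78% of cells were above the Cluster_4 median.

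**Figure D3:**
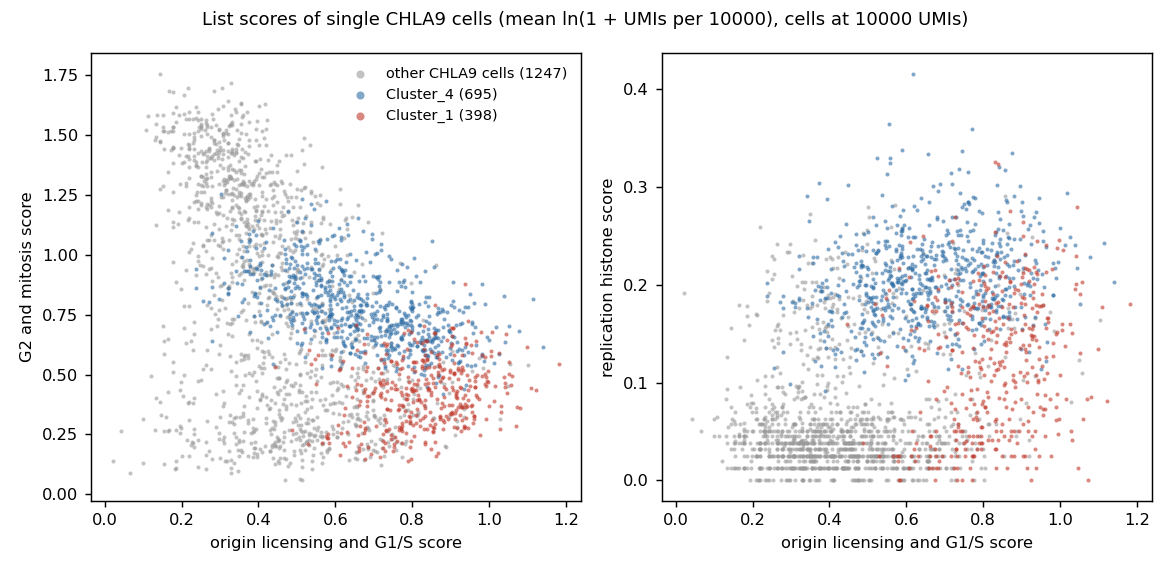
Each point is a CHLA9 cell at 10000 UMIs, by its origin licensing and G1/S score and its G2 and mitosis score (left) or its replication histone score (right), for the 398 cells of Cluster_1, the 695 of Cluster_4 and 1247 other cells. Cluster_1 lies at high licensing and low mitotic scores, with medians of 0.831 and 0.428, and its histone scores spread from 0 to 0.326.

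Within Cluster_1 the histone score and the mitotic score moved together, with a Spearman rho of 0.756 across the 398 cells, and the histone score and the DNA synthesis score had a rho of 0.521. The licensing score was nearly unrelated to the histone score, with a rho of 0.169, and to the mitotic score, with one of 0.182. In the 695 Cluster_4 cells rho was -0.117 between the histone and mitotic scores and -0.557 between the licensing and mitotic scores, both of the other sign. It was of the same sign between licensing and histones, 0.214, and between DNA synthesis and histones, 0.147. These are descriptions of cells that share 1 library, and in Cluster_1 the histone and mitotic scores had a rho of 0.186 and 0.238 with the UMIs of the cell before thinning.

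The 16 Cluster_1 cells placed in G1 had lower sums of the 4 cell cycle lists than the rest of the cluster, which the phase call in part ensures, because G1 is the call for cells low in S and G2M genes. Their licensing genes summed to 3811 CPM (3655 to 3971), against 5901 (5860 to 5942) in the 382 cells in S, and their histone genes to 1057 CPM (976 to 1143) against 2500 (2474 to 2527). Their mitotic genes summed to 3009 CPM (2871 to 3152), against 3873 (3840 to 3906). The remaining lists went both ways. Cholesterol genes were at 1563 CPM (1464 to 1666) in the 16 cells against 1323 (1304 to 1342). The p53 targets were at 669 (605 to 738) against 597 (584 to 610), with intervals that overlap. Fanconi anemia and homologous recombination genes were lower in the 16 cells, at 1608 CPM against 2348, as were glycolysis and hypoxia genes, at 7203 against 7489. The median depth was 31797 UMIs in the 16 cells and 34921.5 in the 382.

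Promoters of the genes that separated the clusters were searched for known cell cycle elements. Windows of 300 bases, from 250 before to 50 after the start site, came from RefSeq on GRCh38.p14, and 7154 of the 8604 genes compared had one. The E2F site was taken as TTTGGCGC, TTTCCCGC, TTTGCCGC or TTTCGCGC and the CHR element, a binding site in promoters of mitotic genes, as TTTGAA, each on both strands, and neither contains the other. Of the 12 leading genes of at least 50 CPM in each direction, the first 3 with the element within 100 bases before to 50 after the start are shown, as examples of each element; in the first 3 the capitals mark the E2F site and in the last 3 the CHR element, and all read 5′ to 3′ on the strand of the gene.
DTL: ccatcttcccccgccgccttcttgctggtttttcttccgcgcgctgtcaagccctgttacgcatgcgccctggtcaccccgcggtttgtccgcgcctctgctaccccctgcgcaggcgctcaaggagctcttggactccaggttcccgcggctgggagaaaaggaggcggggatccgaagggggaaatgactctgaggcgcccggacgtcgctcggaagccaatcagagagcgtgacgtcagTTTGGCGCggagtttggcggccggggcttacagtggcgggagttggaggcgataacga
CDCA7: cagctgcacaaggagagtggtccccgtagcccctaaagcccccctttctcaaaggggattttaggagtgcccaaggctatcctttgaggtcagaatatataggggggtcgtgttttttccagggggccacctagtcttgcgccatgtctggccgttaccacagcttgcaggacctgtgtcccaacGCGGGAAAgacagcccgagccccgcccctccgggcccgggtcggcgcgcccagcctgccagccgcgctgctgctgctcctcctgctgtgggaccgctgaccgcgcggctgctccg
E2F2: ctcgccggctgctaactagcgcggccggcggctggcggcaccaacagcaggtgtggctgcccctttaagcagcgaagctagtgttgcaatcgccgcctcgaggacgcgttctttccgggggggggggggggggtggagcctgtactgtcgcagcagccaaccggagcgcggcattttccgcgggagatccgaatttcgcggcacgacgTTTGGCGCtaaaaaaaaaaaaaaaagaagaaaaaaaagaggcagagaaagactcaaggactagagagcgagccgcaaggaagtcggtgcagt
DLGAP5: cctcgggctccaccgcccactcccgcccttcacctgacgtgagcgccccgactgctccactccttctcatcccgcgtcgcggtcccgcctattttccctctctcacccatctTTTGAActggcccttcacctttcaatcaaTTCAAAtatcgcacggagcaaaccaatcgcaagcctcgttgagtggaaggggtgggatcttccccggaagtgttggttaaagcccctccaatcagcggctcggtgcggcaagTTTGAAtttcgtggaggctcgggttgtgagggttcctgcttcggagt
CDCA3: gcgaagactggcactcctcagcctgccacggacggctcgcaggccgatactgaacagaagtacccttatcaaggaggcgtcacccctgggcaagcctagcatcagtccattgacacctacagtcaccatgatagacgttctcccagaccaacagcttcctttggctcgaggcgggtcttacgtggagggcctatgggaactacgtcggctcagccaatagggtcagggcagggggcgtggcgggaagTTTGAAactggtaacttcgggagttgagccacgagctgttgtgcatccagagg
HMMR: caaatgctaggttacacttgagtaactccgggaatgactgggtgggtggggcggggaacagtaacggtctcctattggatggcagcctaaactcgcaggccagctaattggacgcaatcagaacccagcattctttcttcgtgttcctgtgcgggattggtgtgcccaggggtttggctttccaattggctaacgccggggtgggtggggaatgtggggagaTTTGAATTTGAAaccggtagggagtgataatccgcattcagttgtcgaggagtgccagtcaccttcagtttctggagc

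The windows lie at chr1:212035498-212035797 on the plus strand for DTL, chr2:173354622-173354921 on the plus strand for CDCA7, and chr1:23531184-23531483 on the minus strand for E2F2. Those of the mitotic genes are chr14:55191536-55191835 on the minus strand for DLGAP5, chr12:6851237-6851536 on the minus strand for CDCA3, and chr5:163460382-163460681 on the plus strand for HMMR. Each window covers the start of the annotated transcript, with 50 transcribed bases. In DTL the E2F site begins at position -8 from the start site and in E2F2 at position -42, while in CDCA7 it is on the other strand at position -65. CHR elements begin at position -3 in CDCA3, at positions -28 and -22 in HMMR and at positions -138, -109 and 4 in DLGAP5.

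The elements were unequally spread over the genes. Of the leading genes with a window, the E2F site was in 5 of 11 higher in Cluster_1 and in 0 of 10 lower. Those higher without it were UNG, BCL11B, ZMYND19, NR2C2AP, HAP1 and TMEM132B. The CHR element was in 8 of 10 lower, not in CCNB1 or CENPE, and in 0 of 11 higher. The E2F site was in 16 of the 103 windows of genes higher in Cluster_1, 15.5% (9.15 to 24.0), in 8 of 166 of the genes lower, 4.82% (2.10 to 9.27), in 6.32% of all genes compared and in 3.31% of all 35116 promoters. The CHR element was in 70 of the 166 windows of the genes lower, 42.2% (34.6 to 50.1), in 5 of the 103 of the genes higher, 4.85% (1.59 to 10.97), in 9.64% of all genes compared and in 15.2% of all promoters. CCAAT, the site of the factor NF-Y, was in 60.2% of the windows of genes lower, 49.5% of those of genes higher and 38.4% of all genes compared. Of the 131 genes higher, 37 were under 10 CPM in Cluster_4, and of the 193 lower, 29 were under it in Cluster_1. These passed the minimum only through the cluster where they were higher, and shares without them were not counted. The lists hold much of the E2F difference and less of that in CHR. Among genes in no list the E2F site was in 7 of 86 windows of genes higher, 8.14% (3.34 to 16.1), an interval that includes the 6.32% of all genes compared, and the CHR element in 41 of 115 of genes lower, 35.7% (26.9 to 45.1).

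**Figure D4:**
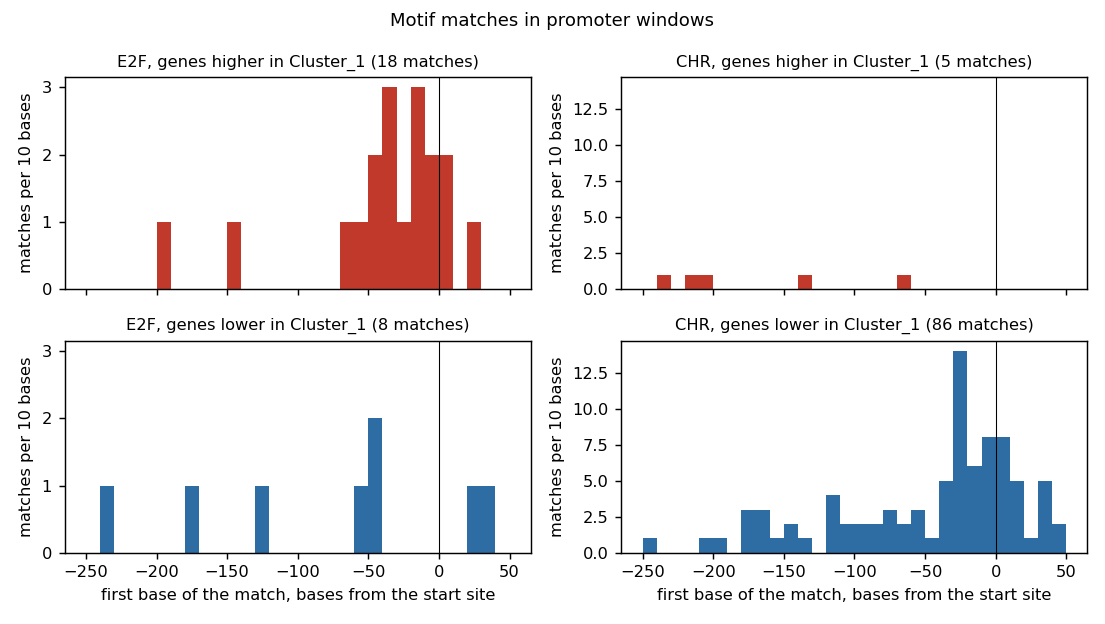
Matches to the E2F site (left) and the CHR element (right) in promoter windows of genes at least 1.5-fold higher (top) and lower (bottom) in CHLA9 Cluster_1 than in Cluster_4, counted per 10 bases by their distance from the start site. Of 18 E2F matches in genes higher, 13 begin from position -50 to 20, and of 86 CHR matches in genes lower, 47 do.

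Near the start site these elements were dense. From position -50 to 20 lay 72.2% of the E2F matches of genes higher in Cluster_1, against 28.5% of the matches in all genes compared, and 54.7% of the CHR matches of genes lower, against 21.4%. The same held for TATAAA, the TATA box, with 66.7% of 6 matches in genes higher and 58.8% of 17 in genes lower, against 32.8%. CCAAT matches were not so placed, at 10.2% and 16.5% against 16.6%. A match is a run of letters and was not tested for binding.

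Genes of DNA repair were close to those of Cluster_4 and mostly above the other cells. In the list of Fanconi anemia and homologous recombination genes 26 members were past the minimum. Of these 1 was higher than in Cluster_4, beside 1.52% of all genes, and 1 lower, beside 2.24%, with a median log2 ratio of 0.02. Against the other cells 14 were higher, beside 2.89% of all genes, and 0 lower, with a median of 0.66. The one higher than in Cluster_4 was XRCC2, which acts in homologous recombination, at 126 CPM (120 to 131) against 71.6 (68.5 to 74.8) and 64.6 in the other cells. The lower one was FANCI, which is ubiquitinated together with FANCD2 at crosslinks. It was at 96.7 CPM (91.7 to 102) against 149 (144 to 153) and 98.6 in the other cells. Among S-phase cells only, both fell under 1.5-fold, with log2 ratios of 0.576 and -0.524, and the list median was -0.12. BRCA1 was at 247 CPM (239 to 255) in Cluster_1, 230 (225 to 236) in Cluster_4 and 127 (124 to 130) in the other cells. FEN1, the flap endonuclease of lagging strand synthesis, was at 200 CPM (193 to 208), 189 (184 to 195) and 89.9 (87.2 to 92.6). Among S-phase cells both were on the other side of Cluster_4, BRCA1 at 251 CPM against 255 and FEN1 at 205 against 218.

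Of the inhibitors of cyclin-dependent kinases, CDKN2C, CDKN1B and CDKN2D were lower in Cluster_1 than in Cluster_4. Of the 10 members past the minimum in the list of D-type cyclins and CDK inhibitors, 3 were at least 1.5-fold lower than in Cluster_4, beside 2.24% of all genes, and 0 higher, with a median log2 ratio of -0.02. CDKN2C, the p18 inhibitor of CDK4 and CDK6, was at 39.3 CPM (36.1 to 42.6) against 91.0 (87.5 to 94.6) in Cluster_4 and 63.7 (61.4 to 66.0) in the other cells. CDKN1B, the p27 inhibitor, was at 13.4 CPM (11.54 to 15.4) against 28.6 (26.6 to 30.6) and 27.4 (25.9 to 28.9). CDKN2D, the p19 inhibitor, was at 10.6 CPM against 22.3 and 16.03. Cyclin D1, CCND1, by far the most abundant of the list, was at 2608 CPM (2582 to 2635) against 2509 (2491 to 2528).

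**Figure D5:**
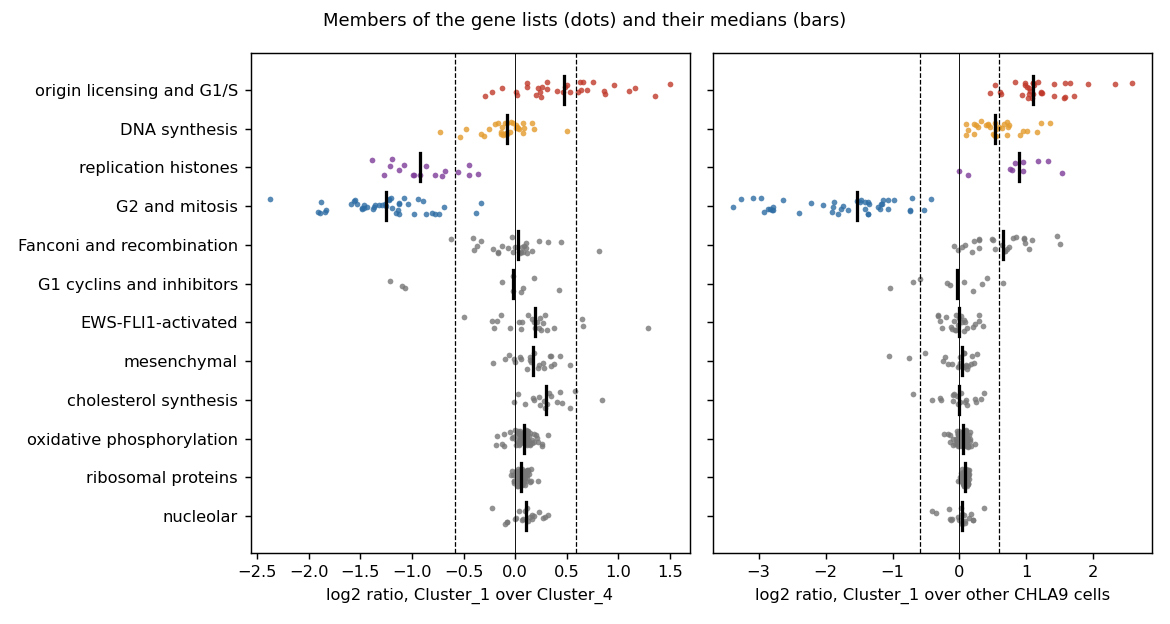
Each dot is a member of a gene list past 10 CPM, by its log2 ratio of CHLA9 Cluster_1 over Cluster_4 (left) or over the other CHLA9 cells (right), with the list's median as a bar and dashed lines at 1.5-fold; height within a row is arbitrary. Licensing genes have medians of 0.47 and 1.10 and mitotic genes of -1.25 and -1.53, whereas histone genes change sides, with -0.93 and 0.89.

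A small number of the fusion's targets were called, all in the comparison with Cluster_4. Of 24 EWS-FLI1-activated genes past the minimum, 3 were called higher in Cluster_1 than in Cluster_4, beside 1.52% of all genes, and 0 lower. Of the 24, 18 had a ratio above 0, and 66.3% of Cluster_1 cells (61.5 to 71.0) had a score above the Cluster_4 median. Such a share was not special to these genes, being 69.3% for mesenchymal genes, 69.6% for the nuclear respiratory chain, 69.1% for ribosomal proteins and 68.8% for glycolysis and hypoxia. The list had a median log2 ratio of 0.19, against -0.01 for the comparison with the other cells, in which 0 were called in either direction. BCL11B, a zinc finger repressor, was at 213 CPM (206 to 221) in Cluster_1, 87.7 (84.3 to 91.3) in Cluster_4 and 254 (250 to 259) in the other cells. NR0B1, a nuclear receptor that the fusion induces through GGAA repeats, was at 57.2 CPM (53.4 to 61.3), 36.2 (34.1 to 38.5) and 48.5 (46.6 to 50.5). The third was IL1RAP, at 52.5, 33.5 and 54.6 CPM. All 3 were thus lowest in Cluster_4, and BCL11B and IL1RAP had their highest level in the other cells. Among 13 genes repressed by the fusion, 2 were past the minimum and neither was called.

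In mesenchymal and metabolic lists few genes were called. Of 22 mesenchymal genes past the minimum, 0 were called against Cluster_4, with a median log2 ratio of 0.17 and the cadherin CDH11 highest at 0.53. Among S-phase cells CDH11 was past 1.5-fold, at 142 CPM against 85.5. LMNA, the A-type lamin, was at 172 CPM (165 to 179) against 133 (129 to 137) in Cluster_4 and 359 (353 to 364) in the other cells. In cholesterol synthesis 17 of 18 members past the minimum had a ratio above 0, with a median of 0.30. Against the other cells 9 were above 0 and 1 was called lower, with a median of -0.01. Only HMGCS1, the synthase of the mevalonate pathway, was called against Cluster_4, beside 1.52% of all genes. It was at 50.9 CPM (47.2 to 54.7) against 28.3 (26.4 to 30.4) and 47.9 (46.0 to 49.9) in the other cells. The medians were 0.08 for oxidative phosphorylation, 0.05 for ribosomal proteins, 0.02 for mitochondrially encoded genes, 0.10 for nucleolar genes, 0.12 for glycolysis and hypoxia and -0.11 for ATF4 targets, with 0 genes called against Cluster_4 in each. Among S-phase cells STC2, a secreted glycoprotein in the ATF4 list, was past 1.5-fold, at 24.7 CPM against 15.2. Among stress lists, 2 of 12 p53 targets past the minimum were higher, beside 1.52% of all genes. They were BTG2 and AEN, at 43.7 CPM (40.3 to 47.2) against 19.2 (17.6 to 20.9) and at 24.7 CPM (22.2 to 27.4) against 14.4 (13.1 to 15.9), with a list median of -0.01, or 0.15 with cells thinned to 10000 UMIs. Among S-phase cells AEN was under 1.5-fold, with a log2 ratio of 0.56. BTG2 was also the only immediate early gene called, of 7 past the minimum, beside 1.52% of all genes. Of 13 heat shock genes past the minimum, 1 was called lower, beside 2.24% of all genes, with a list median of 0.06. It was the chaperone HSPA1A, at 23.6 CPM (21.1 to 26.2) against 40.4 (38.1 to 42.8).

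Of the 131 genes higher than in Cluster_4, 111 were in no list. ZMYND19 at 62.3 CPM (58.3 to 66.6) against 27.6 (25.7 to 29.6), NR2C2AP at 65.4 (61.3 to 69.7) against 29.8 (27.8 to 31.9), the huntingtin-associated HAP1 at 214 (207 to 222) against 106 (102 to 110) and TMEM132B at 123 (117 to 129) against 66.4 (63.4 to 69.5) were among the 12 leading genes. CDCA7, a factor that brings the remodeler HELLS to chromatin, was there too, at 150 CPM (144 to 156) against 74.97 (71.8 to 78.2). All of these were higher than in the other cells as well, where they stood at 34.9, 35.8, 137, 92.6 and 92.1 CPM in the same order. Over the 131 genes the median log2 ratio to the other cells was 0.31, with quartiles of 0.12 and 0.72.

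The TC71 cells of Cluster_4, 222 in number, give a view of another line, grown in another medium. Their licensing score had a median of 0.455 and their histone score one of 0.203, beside 0.652 and 0.204 in CHLA9 Cluster_4 and 0.831 and 0.125 in CHLA9 Cluster_1. Line, medium and library cannot be told apart in these values.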

How the data were processed

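The deposited files hold the count of UMIs of 33538 genes in each barcode, made by the authors against hg38 (Cell Ranger 3.1.0). The study's cell table gave only the cluster of each cell and the totals used for matching; no score, phase or marker of the study was used. A row matched a barcode whose mitochondrial UMIs agreed within 0.5. All matched cells passed the filters (at least 5000 UMIs and 2000 genes, at most 15% mitochondrial UMIs, within 3 median absolute deviations), as did the 1247 other cells, out of 4311 CHLA9 barcodes past them. The libraries share 16 barcode sequences. Doublets were not removed and no doublet caller was run; an alternative leaves out the 8% of cells with the most UMIs.

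UMIs were summed per group as CPM with exact Poisson intervals, and ratios were called past 1.5-fold; no test was made. Phases were scored on all UMIs (R 4.3.3, Seurat 5.3.0). Thinning to 10000 UMIs drew without replacement from a fixed seed (numpy 2.4.6). Other steps used Python 3.11.15, pandas 2.3.3, scipy 1.17.1 and matplotlib 3.10.9. The steps were tested on simulated data. Gene positions of GENCODE 44 on GRCh38 served only in choosing the genes compared. The chromosomes and promoter positions given here are those of RefSeq. Older histone symbols were matched to RefSeq through synonyms.

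The members and lists were chosen with earlier results of these data known. Genes were named by a rule: the 12 furthest apart in each direction among genes of at least 50 CPM in the higher cluster, leaving out clone names, and of each list the 2 highest, 2 lowest and 2 most abundant past 10 CPM, with genes the study names for these topics. MCM5, MCM7, PCNA, CDC6, CCNE1, RRM1, SLBP, CDKN2D, IL1RAP and several markers fall outside it and were chosen after their values were seen. Alternatives covered the minimum, the scaling, the weighting of cells, depth, phase, doublets, the match, the barcode range, the score and the promoter window.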

Additional observations from a re-analysis of the deposited data

How the results depend on the processing

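No paired analysis was possible because there was a single library for CHLA9 and nothing to pair it with. The number of genes past 1.5-fold moved with the minimum on low genes. Without it, 3292 genes were higher and 3511 lower, of 19984, and at 50 CPM 27 were higher and 79 lower, of 3461. With cells thinned to 10000 UMIs the counts were 217 and 294. Under the other alternatives 90 to 162 genes were higher and 164 to 202 lower. The histone median was -0.68 without the minimum and -1.14 at 50 CPM.

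Among S-phase cells only, the medians were 0.20 for licensing genes, -1.06 for histones and -0.93 for mitotic genes. When the phases left out genes seen in fewer than 10 cells, which was tried only after seeing the data, they were 0.24, -1.05 and -0.97. Restricting Cluster_4 to the barcode range of the Cluster_1 rows, also chosen after seeing the data, gave 124 genes higher and 193 lower. Asking for 10 CPM in each cluster, likewise chosen after seeing the data, left 94 genes higher and 164 lower. The share in S was 91.2% in Cluster_1 after thinning and 61.4% in Cluster_4 with genes in at least 10 cells.

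Of Cluster_1 cells, 86.9% were above the Cluster_4 median of licensing when the share of UMIs was used and 86.2% at 5000 UMIs. For histones the values were 5.78% and 15.8%, and for DNA synthesis 29.6% by the share of UMIs. Among lists that crossed the even mark were D-type cyclins and CDK inhibitors, 54.3% by the share of UMIs against 42.0%, immediate early genes, 53.02% at 5000 UMIs against 40.7%, and p53 targets, 37.2% by the share of UMIs and 48.7% at 5000 UMIs against 51.8%. The cause of these moves was not tested. No gene past 1.5-fold that the naming rule picked changed sides of 0 under any alternative tried on it, and of 39 such genes 32 stayed past 1.5-fold among S-phase cells and 37 after thinning. Genes near 10 CPM rest on few UMIs, and with 1 library no spread between cultures was measured.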

Other observations

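Genes named ZNF and a number, most of which encode zinc finger transcription factors, were often among the genes higher in Cluster_1. The family was picked after its values were seen, so it is a description only. Of 228 such genes past 10 CPM, 19 were at least 1.5-fold higher than in Cluster_4, 8.33% against 1.52% of all genes, and 2 were lower, with a median log2 ratio of 0.16 and 168 above 0. Of the 19, 9 were under 10 CPM in Cluster_4 and passed only through Cluster_1; among genes past 10 CPM in each cluster 10 of 207 were higher, 4.83%, against 1.12% of all genes. Against the other CHLA9 cells the median was -0.02. Many of these genes are low, and among those under 30 CPM 17 of 160 were higher, 10.6%, against 2.30% of 3260 other genes at that level. Both of these shares include genes that passed the minimum only through Cluster_1, and at that level they were not counted without them. Of the 74 placed on chromosome 19, which holds large clusters of zinc finger genes, 11 were higher. Of the 154 placed elsewhere or given no chromosome 8 were, while 12 of 429 other genes placed on chromosome 19 were higher. The chromosome came from the RefSeq entry of the promoter window, so genes without a window were given none. Examples are ZNF43, at 60.4 CPM in Cluster_1, 36.1 in Cluster_4 and 51.2 in the other cells, and ZNF730, at 33.8, 18.5 and 18.1 CPM. ZNF367, listed with them by name, was at 25.3, 9.05 and 10.1 CPM.

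PIF1, a DNA helicase, was at 2.17 CPM in Cluster_1, 27.0 in Cluster_4 and 68.7 in the other cells. It passed the minimum only through Cluster_4, and its log2 ratio of -3.64 rests on 31 UMIs in Cluster_1. It was also named after its values were seen.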
